A study of Drosophila melanogaster with 2 samples.

Results

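Translation initiation factors are the proteins that bring the ribosome and the first tRNA to the start codon of an mRNA. Their genes were taken as all protein-coding genes of the Ensembl annotation of the fly genome (BDGP6.54, the assembly also called dm6) whose symbol begins with eIF. These were 44 of 13945 protein-coding genes on the 6 main chromosome arms. The data are chromatin immunoprecipitations of Myb in whole Drosophila melanogaster embryos, 0 to 24 h old and of both sexes, from a transgenic line that stably carries Myb with GFP at its C terminus. The chromatin was sonicated to 200 to 800 bp and precipitated with an antibody to GFP. There were 2 biological replicates, both of this line, and all samples formed 1 group with no control among them. Whole embryos mix all cell types, so the values are averages over them.

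Each replicate and the pooled alignments had a relaxed list of 30000 peaks on dm6. The pooled one is labelled as holding peaks and background, so its entries below the called set can be background. The called set, cut by the submitters with a measure of reproducibility between replicates (IDR), held 6100 peaks. These were the 6100 strongest peaks of the pooled list, so a single called peak need not recur in both replicates. Within 100 bp, 5801 called summits were matched in both replicate lists and 299 were not. The signal of a peak is the submitters' own value, on a scale that is not stated, and ran between 93.9 and 7447 in the called set. The lists hold no read counts, so the depth is unknown and no counting error could be given. A gene counted as bound where the summit of a called peak, its highest point, fell 500 bp or less from any of its transcription start sites (TSSs). "Bound" here means only that. Neither a control precipitation nor chromatin accessibility was analysed.

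In initiation, eIF2 carries the initiator tRNA to the small ribosomal subunit and releases it when its GTP is hydrolysed. The exchange factor eIF2B recharges eIF2 with GTP, a step that stress kinases block by phosphorylating the alpha subunit. The many-subunit scaffold eIF3 binds the small subunit, and the eIF4 proteins bind the mRNA cap, unwind the leader and bridge the mRNA to the ribosome. Flies carry extra copies of several of these genes, and a number of them are known from the male germline. Myb belongs to the Myb-MuvB complex, which regulates genes of the dividing cell and recognises the Myb site and the cell cycle homology region (CHR).

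The DNA under the summits is shown first for bound genes whose signal spans the range seen among the initiation factors and whose sequence words differ. Each stretch is 101 bases of dm6 centred on the summit and written 5′ to 3′ on the strand of the gene. Capitals mark the CHR words TTCGAA and TTTGAA, the Myb site words CAACGG and TAACGG, the DNA replication-related element (DRE) word TATCGATA, bound by the promoter factor DREF, and GGTCACAC, the core of the motif of the promoter factor M1BP, each on either strand. The stretches are chr3L:9402443-9402543 (minus strand) for eIF4E1, chr3R:4714192-4714292 (minus) for eIF3f1, chr3R:15263444-15263544 (minus) for eIF2gamma, chr3R:23679935-23680035 (plus) for eIF3d1, chrX:16446982-16447082 (minus) for eIF2alpha and chr2L:4967769-4967869 (minus) for eIF3i. Their order below is by signal, high to low.
eIF4E1: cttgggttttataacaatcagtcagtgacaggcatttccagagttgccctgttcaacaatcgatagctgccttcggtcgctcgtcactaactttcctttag
eIF3f1: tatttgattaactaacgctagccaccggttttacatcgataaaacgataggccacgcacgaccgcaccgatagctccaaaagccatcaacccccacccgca
eIF2gamma: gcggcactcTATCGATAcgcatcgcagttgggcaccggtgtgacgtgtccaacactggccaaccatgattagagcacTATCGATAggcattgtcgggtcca
eIF3d1: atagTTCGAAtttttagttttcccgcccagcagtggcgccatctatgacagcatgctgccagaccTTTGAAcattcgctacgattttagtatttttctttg
eIF2alpha: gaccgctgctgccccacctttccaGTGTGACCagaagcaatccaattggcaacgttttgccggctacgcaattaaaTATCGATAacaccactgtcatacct
eIF3i: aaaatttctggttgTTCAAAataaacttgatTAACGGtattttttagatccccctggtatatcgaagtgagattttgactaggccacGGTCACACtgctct
Of the summits shown here, the eIF4E1 and eIF3f1 windows held none of the capitalised words, whereas eIF2gamma held the DRE word at 2 places and eIF3d1 a CHR word at 2 places. The eIF2alpha window held 1 DRE and 1 M1BP word. The eIF3i window, under one of the weakest called summits, held 1 CHR, 1 Myb site and 1 M1BP word. These windows are a selection, so no relation of words to signal can be read from them. The eIF3k window, not printed here, lay under a summit of 1914 and held 1 CHR and 1 Myb site word.

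Paralogs are shown next because some were bound and others were not. The first pair below are the summit windows of eIF4E6 (chr3R:29027163-29027263, minus) and eIF4G2 (chr3R:23819239-23819339, minus), which were the bound paralogs of limited expression. The other stretches end at the gene start and begin 100 bases before it, for genes without a called summit: eIF4E3 (chr3L:8229124-8229224, plus), eIF3d2 (chr3R:12195011-12195111, minus) and eIF4G1 (chr4:930715-930815, minus).
eIF4E6: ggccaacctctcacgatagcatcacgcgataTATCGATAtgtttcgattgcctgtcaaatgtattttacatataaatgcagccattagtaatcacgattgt
eIF4G2: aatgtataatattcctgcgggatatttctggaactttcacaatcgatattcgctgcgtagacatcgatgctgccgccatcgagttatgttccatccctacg
eIF4E3: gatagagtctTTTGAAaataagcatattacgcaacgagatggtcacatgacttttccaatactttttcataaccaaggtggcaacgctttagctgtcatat
eIF3d2: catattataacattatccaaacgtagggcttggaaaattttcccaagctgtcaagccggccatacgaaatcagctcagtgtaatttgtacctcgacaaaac
eIF4G1: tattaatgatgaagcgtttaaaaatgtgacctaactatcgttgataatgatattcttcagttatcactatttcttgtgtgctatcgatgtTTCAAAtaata
The eIF4E6 window held 1 DRE word, the eIF4E3 and eIF4G1 stretches 1 CHR word each, and those of eIF4G2 and eIF3d2 none of the capitalised words. The stretches of the unbound eIF4E3 and eIF4G1 thus held a CHR word and the summit window of eIF4E1 did not. These are different kinds of window, so they do not compare the genes. In the wider windows at the gene start, described below, eIF4E1 and eIF4G1 held 1 CHR word each and eIF4E3 held 2.

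Of the 44 initiation factor genes, 27 (61.4%) were bound, against 4966 of all 13945 protein-coding genes (35.6%). By complex, 8 of 10 genes of the eIF2 group were bound, as were 10 of 16 eIF3 genes, 5 of 13 eIF4 genes and 4 of the 5 others (eIF1, eIF1A, eIF5, eIF5B and eIF6). The eIF4 share, 38.5%, was near that of all genes, and the shares of the eIF2 group, 80%, and of eIF3, 62.5%, were above it. Among the 35 genes left after setting aside 9 paralogs of limited expression, 25 were bound (71.4%). These paralogs are all eIF3 or eIF4 genes. Without them 10 of 13 eIF3 genes (76.9%) were bound, close to the share of the eIF2 group, and 3 of 7 eIF4 genes (42.9%). Genes of limited expression were not set aside from all genes, so the 35.6% is not a like share for these values. The median signal of the 27 bound genes was 277, against 224 for all 4966 bound genes, and 15 of the 27 lay above the median of all. That median is the value of eIF3b. A window of 250 bp, which loses eIF3b, gave 226.3 against 223 for all bound genes, so the difference rests on 1 gene. The 1000 strongest summits included those of 6 of the 27 (22.2%), against 22% of all bound genes, about the same share. The median signal was 306 for eIF3, 280 for eIF4 and 195 for the eIF2 group, whose share of bound genes was the highest of these 3 in the called set. That order turned among the 3050 strongest called peaks, with 4 of 10 eIF2 group genes and 9 of 16 eIF3 genes bound, against 21.6% of all genes.

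**Figure D1:**
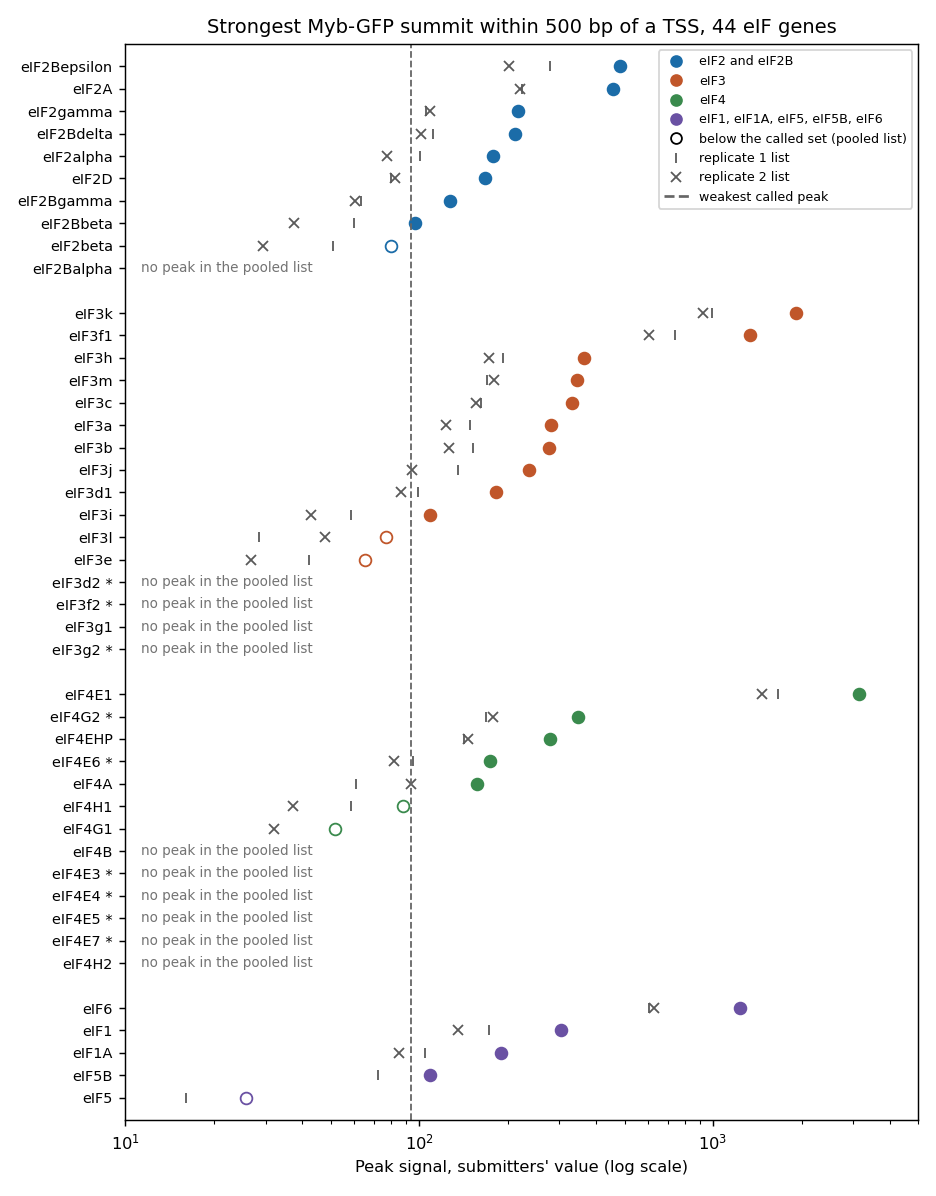
Signal of the strongest Myb-GFP summit within 500 bp of a TSS for each of the 44 genes, on a log axis, by group and falling signal, with asterisks on the 9 paralogs of limited expression. Filled circles are called peaks, open circles peaks of the pooled list below the called set, and bars and crosses the matched peaks of replicates 1 and 2, whose lists have their own signal scales. The eIF4E1 peak at 3132 lies far to the right, and 11 genes have no peak in the pooled list.

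The eIF2 trimer was bound at 2 of its 3 genes. At eIF2gamma (FBgn0263740), which encodes the GTP-binding subunit, the summit had a signal of 217 (106 in replicate 1 and 108 in replicate 2), 36 bp upstream of the TSS. Paired values in parentheses after a signal are those of replicates 1 and 2 throughout. That TSS is also the start of Su(var)3-9, which encodes a histone methyltransferase, and the TSS of Set on the other strand lay 58 bp from the summit, so the peak cannot be given to 1 of these genes. At eIF2alpha (FBgn0261609), the target of the stress kinases, the summit had 178 (100 and 77.5) at 39 bp upstream, with no other coding gene starting within 500 bp of it. The gene of the beta subunit, eIF2beta (FBgn0004926), had no called summit. Its strongest peak in the pooled list had 80.5 (50.9 and 29.5) and lay 266 bp upstream, below the weakest called peak at 93.9.

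Of the 5 genes of the exchange factor eIF2B, 4 were bound. The gene of its catalytic subunit, eIF2Bepsilon (FBgn0023512), had the highest value of the eIF2 group, 484 (279 and 202), 98 bp upstream of its TSS and 9 bp from that of the phosphatase gene Ocrl. The delta and gamma subunit genes, eIF2Bdelta and eIF2Bgamma, had 211 (111 and 102) and 127 (63.5 and 60.4), at 56 and 37 bp upstream. The eIF2Bdelta summit lay 2 bp from the TSS of its neighbour roh. The summit of eIF2Bbeta (FBgn0024996) was the weakest called summit of all 27 genes, 97.0 (59.99 and 37.6), and lay in its 5′ UTR, 41 bp downstream of the TSS. The gene of the alpha subunit, eIF2Balpha, had no peak within 500 bp in any list, and its nearest called summit was 28081 bp away.

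The group also holds eIF2A and eIF2D, which can place tRNA on the small subunit without the trimer. The eIF2A summit had 458 (223 and 220), in the 5′ UTR and 70 bp upstream of an internal TSS. The eIF2D summit had 167 (80.0 and 82.5), 146 bp upstream. Neither had a coding neighbour at the summit.

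Among the eIF3 genes, all 10 bound ones were single-copy subunits or the canonical copy of a pair. The highest signal was at eIF3k (FBgn0034654), which encodes a small accessory subunit, 1914 (989 and 923), 40 bp upstream of its TSS. It was followed by eIF3f1 (FBgn0037270), 1338 (739 and 605), 60 bp upstream. Both ranked among the 1000 strongest summits, at 113 and 219, and neither shared its summit with another coding gene. The eIF3h gene had 2 called summits of similar signal, 364 and 342, of which the stronger lay 271 bp downstream of an internal TSS, in an intron, and the weaker 9 bp downstream of that TSS and 72 bp from the TSS of senju. Subunits eIF3m and eIF3c had 345 (170 and 179) and 332 (163 and 156), the eIF3m summit also lying 138 bp from the TSS of CG8323.

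The remaining bound eIF3 genes had lower values. At eIF3a, which encodes the largest scaffold subunit, the summit had 281 (149 and 123), 50 bp upstream and 20 bp from the TSS of CG1074. At eIF3b it had 277 (152 and 126) but lay 293 bp upstream, with the TSS of Patronin, which encodes a microtubule minus-end protein, only 54 bp away. The summit of eIF3j, a loosely bound subunit, had 236 (136 and 94.5). That of eIF3d1, a subunit known in mammals to bind mRNA caps, had 183 (99.4 and 86.8). The eIF3i summit had 108.6 (58.6 and 42.8), 44 bp upstream of its TSS. The 6 unbound eIF3 genes were eIF3e, eIF3l, eIF3g1 and the paralogs eIF3d2, eIF3f2 and eIF3g2.

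The single-copy subunits below the called set, eIF3e and eIF3l, had weak entries in the relaxed lists of both replicates. Those lists held a summit at 59.1% (replicate 1) and 58.2% (replicate 2) of all genes, so such an entry is common. The eIF3e peak had 65.3 in the pooled list (42.1 and 26.7), 105 bp upstream. The eIF3l peak had 77.0 (28.4 and 47.7) and lay 415 bp upstream, 7 bp from the TSS of Nrx-IV, a cell junction gene. The canonical RNA-binding subunit gene eIF3g1 had no peak in the pooled list within 500 bp. It had one only in the list of replicate 1, with 18.9, and its nearest called summit lay 1398 bp away.

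Of all initiation factor genes, eIF4E1 (FBgn0015218, chr3L:9399618-9402460, minus strand), the gene of the main cap-binding protein, had the highest signal. Its summit had 3132 in the called set, rank 35 of 6100, and 1662 and 1465 in replicates 1 and 2, ranks 31 and 37. It lay 33 bp upstream of the gene start, at position 9402493, and no other coding gene started within 500 bp. The second cap-binding protein, eIF4EHP, which represses mRNAs such as caudal in the early embryo, had 280 (142 and 146) at 59 bp upstream, and a weaker called summit of 187 nearer to its neighbour CG18428. The helicase gene eIF4A had 157 (61.1 and 93.8), in its 5′ UTR and 84 bp upstream of an internal TSS.

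The genes of the helicase partners and of the canonical scaffold were not bound. The eIF4H1 gene, which encodes an eIF4A-stimulating protein, had the strongest peak just outside the called set, 87.9 (58.5 and 37.3), 72 bp upstream and 291 bp from the TSS of CG34015. The scaffold gene eIF4G1, on chromosome 4, had 51.7 in the pooled list, 38 bp downstream of its TSS. The strongest peaks of the replicates in its window had 25.6 and 32.1. No list held a peak within 500 bp of eIF4B or eIF4H2. For eIF4B (chr3L:27842669-27858271, minus strand) even the nearest summit of the pooled list lay 578767 bp away, and the nearest called one 2742231 bp, which places the gene in a stretch without called peaks.

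The bound genes of factors outside the 3 large groups had signals between 109.2 and 1232. The gene of eIF6 (FBgn0034915), which keeps the large ribosomal subunit apart until it is mature, had 1232 (605 and 627), 102 bp upstream and within an intron of ytr. For eIF1, which guards start codon selection, the stronger of 2 called summits had 304 (173 and 135) but lay 326 bp upstream, 55 bp from the TSS of the ribosomal protein gene RpL28. The weaker had 146 and lay 125 bp upstream. The gene of its partner in scanning, eIF1A, had 190 (105 and 85.0) at 33 bp upstream and 186 bp from the TSS of Vps39. The eIF5B gene, whose GTPase product joins the ribosomal subunits, had 109.2 at 1 bp from an internal TSS. Its summit matched a peak of 72.5 in replicate 1 but none within 100 bp in replicate 2, where the strongest peak of the window had 48.4. The gene of eIF5, which triggers GTP hydrolysis by eIF2, had only a peak of 25.7 in the pooled list, 440 bp upstream and 54 bp from the TSS of exd, with a TSS of CG46312 also in reach.

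Paralogs were compared as 5 canonical genes (eIF3d1, eIF3f1, eIF3g1, eIF4E1 and eIF4G1) and 9 copies of limited expression. This division rests on general knowledge of fly gene expression, not on these data. Of the canonical genes 3 were bound (60%), and of the copies 2 (22.2%), against 35.6% of all genes. With 5 and 9 genes, 1 gene moves these shares widely. Within the eIF4E, eIF3d and eIF3f families the canonical gene was bound, with 3132, 183 and 1338, and of their 7 copies 6 (eIF4E3, eIF4E4, eIF4E5, eIF4E7, eIF3d2 and eIF3f2) had no peak within 500 bp in any list. In the eIF3g pair neither gene was bound. The eIF4G pair ran the other way: eIF4G2, which is needed in the male germline, had a called summit of 346 (168 and 178), against the 51.7 of eIF4G1 in the pooled list.

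Both bound copies shared their summit with another gene. The eIF4G2 summit lay 52 bp upstream of its TSS, and 52 bp upstream of the TSS of CG33111, within an intron of CG34355. The eIF4E6 summit, 174 (95.5 and 82.0), lay 39 bp upstream of its TSS but only 23 bp from that of CG1951 on the other strand. The nearest called summits of the other copies lay between 9061 bp (eIF4E5) and 56155 bp (eIF3g2) from their TSSs.

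**Figure D2:**
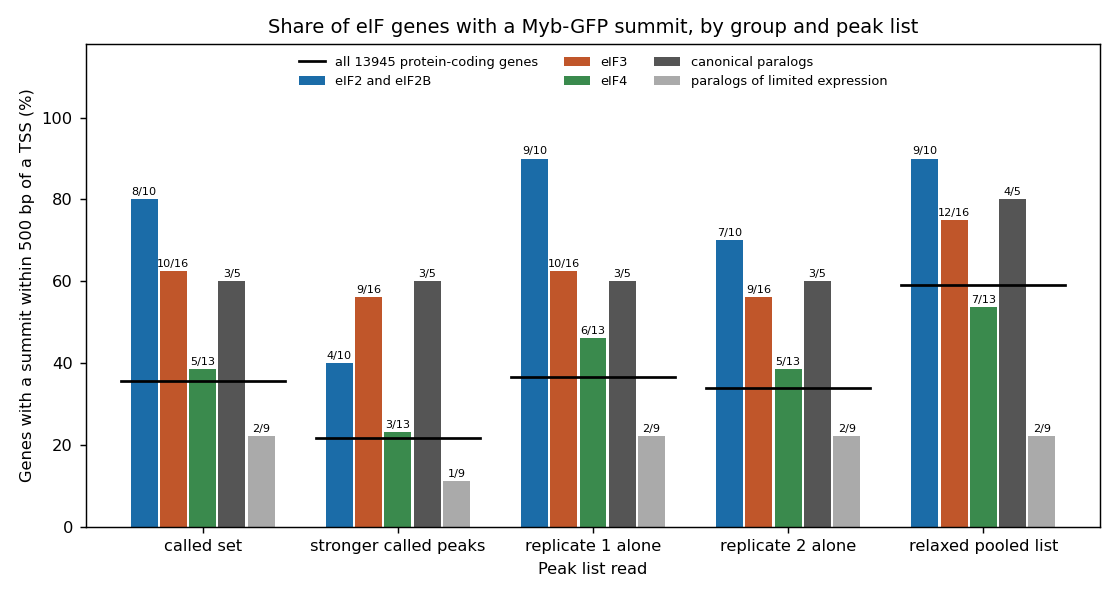
Percentage of genes with a summit within 500 bp of a TSS, by group (bars, with the number of genes above each) and by the peak list read. Black lines give the share of all 13945 protein-coding genes in the same list. The copies of limited expression stay at 2 of 9 in the called set, the replicate lists and the pooled list and have 1 of 9 in the 3050 stronger called peaks, while the eIF2 group lies between 4 and 9 of 10.

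Summits of the initiation factor genes lay close to the TSS on its upstream side. Of the 27 bound genes, 25 (92.6%) had their strongest summit upstream of the nearest TSS, against 87.2% of all bound genes. Within the first 100 bp upstream were 21 (77.8%), against 47% of all bound genes. The median position was 50 bp upstream, against 72 bp upstream for all bound genes. The exceptions downstream were eIF3h and eIF2Bbeta, and the farthest upstream were eIF1 and eIF3b, whose summits were nearer to the TSS of a neighbour.

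**Figure D3:**
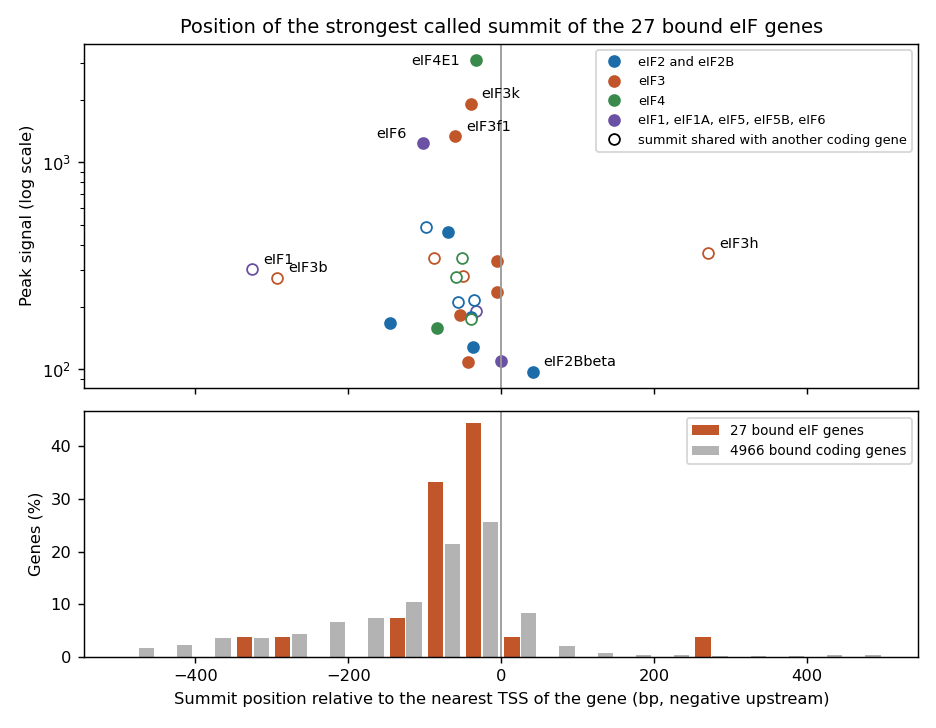
Upper panel, signal (log axis) against position of the strongest called summit relative to the nearest TSS for the 27 bound genes, with open circles where another coding gene starts within 500 bp of the summit. Lower panel, percentage of genes per 50 bp for these genes and for all 4966 bound genes. Most initiation factor summits lie in the first 100 bp upstream.

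Shared promoters limit what can be assigned to an initiation factor gene. The strongest summit of 12 of the 27 (44.4%) lay within 500 bp of a TSS of another coding gene, against 55.2% of all bound genes. For 6 of them, eIF1, eIF2Bdelta, eIF2Bepsilon, eIF3a, eIF3b and eIF4E6, the other TSS was the closer one. A divergent promoter, with a coding TSS within 1000 bp on the other strand pointing away, was present at 21 of the 44 genes (47.7%), against 36.2% of all genes. Of these, 15 (71.4%) were bound, against 60.1% of all genes with such a promoter. Among the 23 genes without one, 12 (52.2%) were bound, against 21.7%. Both shares were above those of all genes, by less at genes with a divergent promoter. The part of promoter type in the shares was not tested.

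The number of start sites also differed between bound and unbound genes, and its part in the shares was not tested. Of the 29 genes with 1 annotated TSS, 14 (48.3%) were bound, against 30.3% of all such genes. Of the 15 genes with more, 13 (86.7%) were bound, against 50.3%. All eIF4E copies had 1 TSS, the bound eIF4E6 included, and eIF4E1 had 4.

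The replicate lists were compared by the ratio of their signals at the same summit. For the 26 genes whose summit had a peak within 100 bp in both replicates, the ratio of replicate 1 to replicate 2 ran from 0.651 at eIF4A to 1.60 at eIF2Bbeta, with a median of 1.12. Over all 5801 called summits matched in this way the median was 1.01, and the middle 90% ran from 0.554 to 1.66. All 26 thus fell within the spread of the whole called set.

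**Figure D4:**
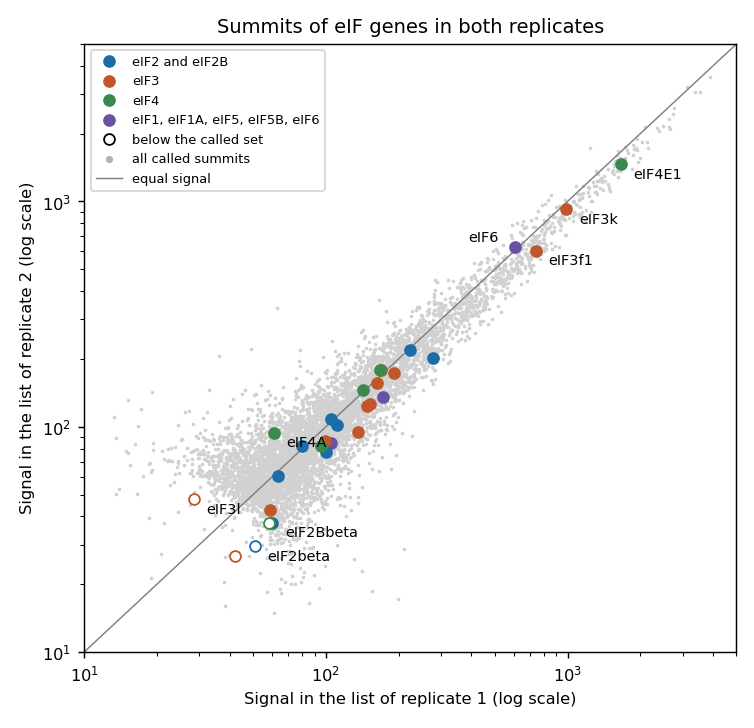
Signal in the list of replicate 1 (x axis) and replicate 2 (y axis), both on log axes, for initiation factor summits with a peak in both lists (circles, open where below the called set) and for all called summits (grey points), with a line of equal signal. The eIF4E1, eIF3k, eIF3f1 and eIF6 summits are the 4 highest in both replicates, and eIF4A lies above the line.

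Other ways of reading the lists kept a core of these genes, although the settings are not independent. A window of 1000 bp, overlap of the whole peak and the relaxed pooled list all contain the called set. These could therefore not lose a bound gene. Over 12 settings 18 genes were bound under each, including eIF4E1, eIF3k, eIF3f1, eIF6, eIF2A, eIF2gamma, eIF4EHP and eIF4G2, and 10 were bound under none. The same counts were not made over all genes, so these 2 have no share beside them. The 18 are the genes left by the 3050 strongest called peaks, except eIF3b, which the 250 bp window lost. They therefore mostly restate peak strength. Those 10 were eIF2Balpha, eIF4B, eIF4H2 and all copies of limited expression other than eIF4E6 and eIF4G2. The strongest 6100 peaks of replicate 1 in place of the called set gave 29 bound genes, against 36.5% of all genes, with eIF2beta and eIF4H1 added. Those of replicate 2 gave 24, against 33.9%, without eIF2Bbeta, eIF3i and eIF5B. The 3050 strongest of the called peaks left 19, against 21.6%, and lost 4 genes of the eIF2 group. The relaxed pooled list gave 33, against 59.1%, and the relaxed lists of replicates 1 and 2 gave 34 and 32, against 59.1% and 58.2%. A window of 250 bp gave 26, against 30.9%, losing eIF3b. A count of 27 was kept with a window of 1000 bp (38.9% of all genes), with 1 TSS per gene (33.7%), with peak overlap in place of the summit (37.3%) and with 1 summit per interval (35.6%).

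Short sequence words were counted within 50 bp of the strongest summit of each bound gene, on both strands, beside all 4246 called summits at coding promoters. The 4246 were not limited to the strongest summit of each gene, so the 2 sets are not wholly alike. Matches describe letters in these windows only. The DRE word TATCGATA was in 7 of the 27 windows (25.9%), against 8.41% of all, and the M1BP core GGTCACAC in 5 (18.5%), against 7.28%. At least 1 of these was present at 10 (37%), against 15%. Of the bound eIF2 group genes 5 of 8 had one, namely eIF2alpha, eIF2gamma, eIF2A, eIF2Bbeta and eIF2Bepsilon, whereas 2 of 10 eIF3 genes and 1 of 5 eIF4 genes did. The eIF2Bepsilon window held the M1BP word at 2 places.

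The words linked to the Myb-MuvB complex ran differently. A CHR word (TTCGAA or TTTGAA) was in 3 windows (11.1%), against 23.2%, and the Myb site (CAACGG or TAACGG) in 4 (14.8%), against 11%. All 3 CHR windows, those of eIF3d1, eIF3i and eIF3k, were at eIF3 genes, and the Myb site was at eIF3i, eIF3k, eIF3m and eIF4A. No eIF2 group window held either. The E2F words TTTCGCGC and TTTGGCGC and the Zelda word CAGGTAG were in none of the 27 windows, against 1.55% and 0.424% of all. The GAGA word GAGAG was in 3 (11.1%), against 9.28%, and 12 windows (44.4%) held none of the 7 word types, against 51.1%.

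In wider windows, 250 bases before to 50 bases after each gene start, bound and unbound genes could be set side by side. The Myb site was present at 8 of the 27 bound genes (29.6%), eIF4E1 with 2 among them, and at 0 of the 17 unbound ones. Over all genes the shares were 21.3% of bound and 13.6% of unbound. The DRE word was at 10 bound genes (37%) and 2 unbound ones (11.8%), eIF3l and eIF4B, against 17.5% and 4.84% of all bound and unbound genes. The M1BP core was at 4 bound genes (14.8%) and 2 unbound ones (11.8%), eIF2beta and eIF3l, against 15.6% and 3.36%, so the bound genes did not exceed all bound genes in this window as they did at the summits. The GAGA word was at 3 bound genes (11.1%) and 4 unbound ones (23.5%), against 25.5% and 32.2%, and no member held an E2F or Zelda word. A CHR word was at 14 bound genes (51.9%) and 11 unbound ones (64.7%), against 54.9% and 44.5%. Presence of a CHR word did not separate bound from unbound initiation factor genes.

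Other genes of translation initiation and its control were counted from a fixed list of 22. Of these 15 (68.2%) were bound, against 35.6% of all genes, with a median signal of 266, against 224 for all bound genes. The highest were larp, which encodes an RNA-binding protein of the mTor pathway, with 1418, and the helicase gene bel with 844. The genes of the kinase Lk6 and of mTor had 406 and 380. The larp and mTor summits lay at -347 and -371 bp from the TSS, where minus is upstream, and mTor has a divergent promoter. Other coding genes at the summits of this list were not looked up, so these signals cannot be given to the named genes alone. The translational regulator gene kra had 372 and Rack1, which encodes a ribosomal scaffold protein, 292. The genes of the ribosome recycling factor pix and of the kinase S6k had 112 and 111. Poly(A)-binding protein (pAbp) had 291, its inhibitor Paip2 234, and the eIF4G relative NAT1 266. Of the proteins that bind eIF4E, cup had 222, Thor, the fly 4E-BP, 174 and mxt 167, while 4E-T was not bound. Of the kinases of eIF2alpha, PEK was bound, with 109, and Gcn2 was not, with 70.9 in the pooled list. The germline helicase gene vas and me31B, which represses stored mRNAs, were also not bound, nor were DENR, MCTS1 and PPP1R15.

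Elongation and termination factor genes, symbols beginning with eEF or eRF, were bound at 6 of 10 (60%), against 35.6% of all genes, with a median signal of 229, about that of all bound genes (224). The highest was eEF1gamma with 522, followed by eEF5 with 319, eEF1alpha1 with 231 and eEF2 with 226. The paralog eEF1alpha2 was not bound, with 68.9 in the pooled list. All of these genes had lower signals than the 3132 of eIF4E1.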

How the data were processed

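Myb-GFP was immunoprecipitated from 2 embryo replicates. Of 8 deposited peak lists, the 4 on dm6 were used. Per the labels and the deposited listings these are relaxed lists for each replicate and for pooled alignments, called with a control, and an IDR set. The deposited signal of each peak is a score of the authors' peak caller and was ranked within 1 list. Between the replicate lists it was set only as a ratio, beside that of all called summits. The deposited −log10 q was constant in the called set and not used. The called set was checked to be the 6100 strongest peaks of the pooled list. The sources used here do not name the aligner, the caller, their versions or the IDR threshold. Summits were the interval start plus the deposited offset, written 1-based, and were assigned to the 23581 TSSs of Ensembl release 115 (BDGP6.54), with sequence from the NCBI copy of the same assembly, using Python 3.11.15 and NumPy 2.4.6. Assignment was tested on simulated data. A replicate's value is its peak with the summit nearest to the called one, within 100 bp. All 44 members are named, with their strongest summit where a list held one, as are coding neighbours at the same summit and the bound genes of the list of 22. With 1 group no test between samples was possible, and shares stand beside those of all genes. The members and lists were chosen with earlier results of these data known. Alternatives were other windows, 1 TSS per gene, peak overlap, 1 summit per interval, the 3050 strongest called peaks, each replicate's strongest 6100 peaks and the relaxed lists, of which the whole replicate lists were added after seeing the data.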

Additional observations from a re-analysis of the deposited data

How the results depend on the processing

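Counts of bound genes mostly kept within 1.5 times their values. With the 3050 strongest called peaks, 4 genes of the eIF2 group, 3 of the eIF4 group and 1 paralog of limited expression were bound. With the same peaks 9 eIF3 genes and 3 canonical paralogs were bound. A shorter list can only lower such counts, and why the groups differed was not tested. The whole relaxed list of replicate 1, added after seeing the data, gave 5 of 5 canonical paralogs. The median signal of the bound genes was 226.3 with a 250 bp window, 331.5 with these stronger peaks and 211.5 with the relaxed pooled list, whereas the median of all bound genes was 223, 345 and 126 in these settings. With the stronger peaks the median of the initiation factors was therefore below that of all bound genes. Leaving out 1 replicate gave 24 to 29 bound genes in all, 7 to 9 in the eIF2 group, 9 to 10 in eIF3, 5 to 6 in eIF4, and 3 canonical and 2 limited paralogs each time. The median signal was not run on the replicate lists, whose signal has another scale. No paired analysis was possible because the samples form 1 group. Depth is unknown, so genes just outside the called set, such as eIF4H1 at 87.9, could not be separated from eIF2Bbeta at 97.0 by a counting error.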
